A study of Canis lupus familiaris with 6 samples.

Results

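The canine miRNAs cfa-miR-146a, cfa-miR-146b, cfa-miR-155, cfa-miR-223 and cfa-miR-342, written below without the species prefix cfa, are known for their part in inflammation and in blood cells. They were chosen by name, and all 5 were found among the 289 canine miRNAs on the array, with 10 of its 656 probes and 200 of its 11560 spots. The arrays measured sorted cells of 3 canine mammary cancer cell lines, P114, CMT-U309 and CMT-U27, each of which gave 1 Sca1+ and 1 Sca1- sample, so 6 arrays in all. Sca1 (stem cell antigen 1) is a surface antigen, and the labels call the Sca1+ cells cancer stem cells and the Sca1- cells the control. The descriptions of both P114 samples name growth together with macrophages, and those of the CMT-U309 and CMT-U27 samples name mono-culture. The growth protocol given for all 6 samples is the same, plain culture medium with serum and antibiotics, and names no macrophages. The labels name no step other than the Sca1 sort that would part P114 cells from macrophages. P114 is the one line with that label, so line and culture label cannot be told apart.

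miR-146a and miR-146b are induced by the transcription factor NF-kB and repress IRAK1 and TRAF6, which carry the signal of Toll-like and interleukin-1 receptors, so they dampen the response that induces them. miR-155, processed from the BIC transcript, is induced in activated macrophages, B cells and T cells, and represses the signalling inhibitors SHIP1 and SOCS1. miR-223 is a miRNA of granulocytes and monocytes. miR-342 lies in the gene EVL and is expressed in blood cells and in hormone receptor-positive breast epithelium, as known from human tissue.

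The value of a miRNA was its total gene signal, which the scanner software sums over its probes, in intensity units without scaling between arrays, and a detection flag. A miRNA that was not detected has the value 0.1 in the files, which is a placeholder. The arrays fell into 3 bright ones, B1, B3 and B2, with 89 to 111 detected miRNAs and summed signals of 69282 to 70794, and 3 dim ones, D3, D1 and D2, with 9 to 39 detected miRNAs and summed signals of 319.5 to 3228. On a dim array a miRNA that is not detected has no known level. The deposited value table pairs arrays and samples otherwise than the scanner files do. By scanner file, D3 and B3 are Sca1+ and Sca1- of P114, B1 and B2 are Sca1+ and Sca1- of CMT-U309, and D1 and D2 are Sca1+ and Sca1- of CMT-U27. By value table, B1 and B3 are Sca1+ and Sca1- of P114, D2 and D3 are Sca1+ and Sca1- of CMT-U309, and D1 and B2 are Sca1+ and Sca1- of CMT-U27. Both pairings are therefore given. B1 is Sca1+ in both, B3 is P114 Sca1- in both, and B2 is a mono-culture Sca1- sample in both, although its line differs.

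Each of the 5 miRNAs had 2 probes of 20 spots each, the longer probe being the shorter one with 1 more base at its 3′ end. The probes are shown because the signals that follow are read through them. They are written 5′ to 3′, are complementary to the miRNA and carry the added base of the longer probe in capitals.
miR-146a: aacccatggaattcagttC
miR-146b: agcctatggaattcagttC
miR-155: acccctatcacgattaG
miR-223: ggggtatttgacaaactgacA
miR-342: acgggtgcgatttctG
The longer probes were 16 to 21 bases long, and read stretches such as gaactgaattccatgggtt of miR-146a and ctaatcgtgataggggt of miR-155. Per the file headers the build is canFam2, and the mapped interval was 1 base shorter than the probe in each case. The longer probes map to chromosome 4 (53451740 to 53451757) for miR-146a, chromosome 28 (17941070 to 17941087) for miR-146b, chromosome 31 (24096800 to 24096815) for miR-155, chromosome X (53762383 to 53762402) for miR-223 and chromosome 8 (71462955 to 71462969) for miR-342. In the RefSeq gene table of the dog assembly UU_Cfam_GSD_1.0, used for names alone, the miR-342 gene lies within EVL, an actin-regulating protein's gene, and the miR-223 gene within the interval of VSIG4, which encodes a complement receptor of macrophages. The miR-146b gene overlaps a long non-coding RNA gene, and no other listed gene overlaps those of miR-146a and miR-155.

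miR-146a and miR-146b differ at few bases under their probes, so their spots show how well the array told close relatives apart. The longer probes are set out again, with the bases that differ in capitals.
miR-146a: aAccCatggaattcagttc
miR-146b: aGccTatggaattcagttc
Over 19 bases they share 17 and differ by A2G and C5T, counted from 1 at the probe's 5′ end with the miR-146a base first. On B1 all 20 spots of the longer miR-146a probe were well above background, at 355 to 433 intensity units (mean 394 ± 19.5, SD over 20 spots). On the same array none of the 20 spots of the longer miR-146b probe was, and the 19 kept after outlier flags ran from -3.53 to 3.11. On B3 the reverse held: all 20 spots of the longer miR-146b probe were well above background, at 17.8 to 30.0 (mean 23.8 ± 3.33, SD over 20 spots), and none of the longer miR-146a probe, at -0.61 to 4.68 over 16 spots. Neither probe was thus well above background on the array where the other was. The miR-146b signal on B3 was low, and the longer miR-146a probe had a median of 2.81 there. B3 therefore says less than B1 about signal shared between the probes.

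**Figure D1:**
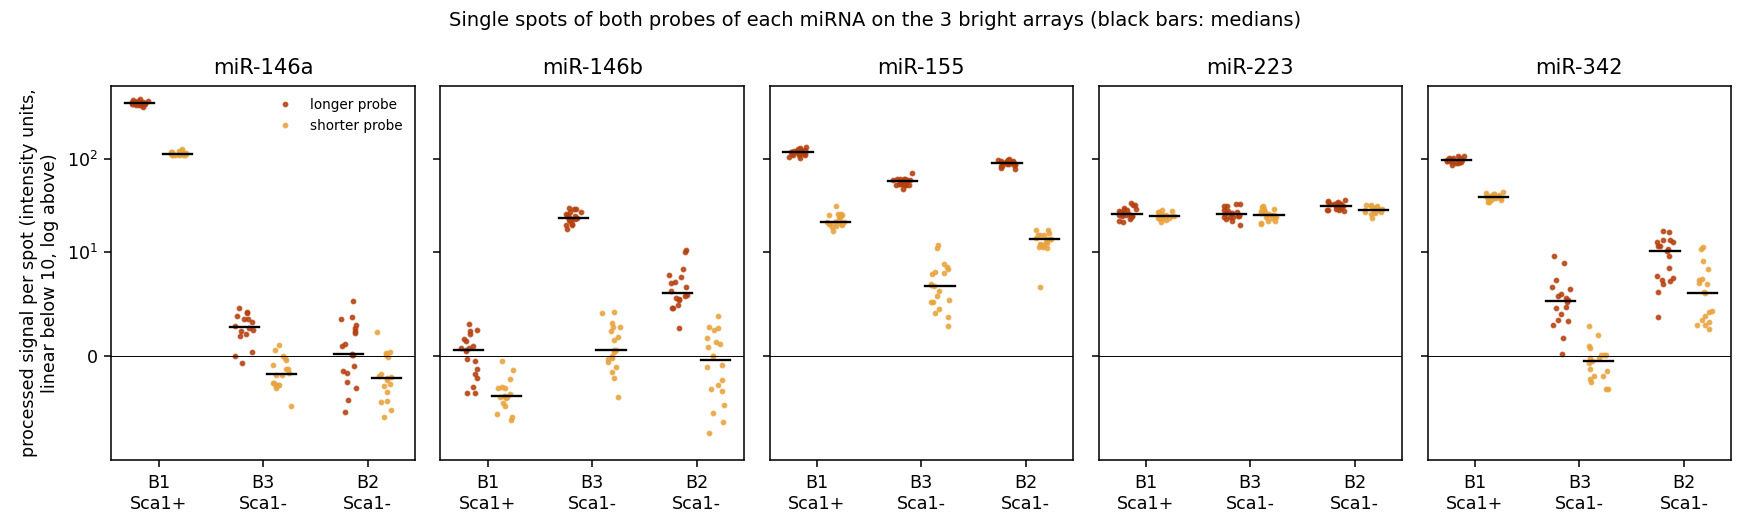
Processed signal of single spots (vertical axis in intensity units, linear below 10 and log above) for the longer and the shorter probe of each miRNA on B1 (Sca1+), B3 and B2 (Sca1-), without outlier-flagged spots and with medians as bars. Spots of the longer miR-146a probe lie at 355 to 433 on B1 and near 0 on B3 and B2, and those of the longer miR-146b probe at 17.8 to 30.0 on B3 and near 0 on B1.

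miR-146a was seen in Sca1+ cells of 1 sample alone. Its total gene signal was 690 on B1 (error 56.0 by the scanner software), and it was not detected on D3, D1, B3, B2 or D2. B1 is the CMT-U309 Sca1+ sample by scanner file, from a mono-culture, and the P114 Sca1+ sample by value table, the line labelled as grown with macrophages. Among the bright arrays, where B1 is Sca1+ and B3 and B2 are Sca1-, miR-146a was at least 17.3-fold higher on B1 (bound on scaled values). The bound has no p, because a miRNA detected on 1 array did not pass the filter of the main fits. Fitted without that filter, the log2 difference was 10.4, which rests on values below detection on B3 and B2. Across 4 other scalings the bound ran from 12.6 to 21.6. A bound sets the level on B1 against the lowest signal of a probe well above background on B3 and B2. In a bulk array fewer cells of a type and less RNA per cell cannot be told apart, here and for the other miRNAs.

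miR-342 followed miR-146a in where it was detected. Its signal was 184 on B1 (error 15.1), and it was not detected on the other 5 arrays. It was at least 4.22-fold higher on B1 (Sca1+) than on B3 and B2 (Sca1-), with bounds of 3.08 to 5.28 in 4 other scalings. Below the detection flag its spots were not equal on the other bright arrays: the longer probe had a median of 5.33 on B3 and of 10.3 on B2, against 95.7 on B1. On the dim arrays the medians of that probe were -1.05 on D3, -0.82 on D1 and -2.68 on D2. Of the 289 miRNAs, 24 were detected on B1 and on no other array, and miR-146a and miR-342 are among them. Of 7 epithelial miRNAs on the array, 5 were detected on B1, with a summed signal of 5129, against 0 on B3 and 1 on B2 (summed signals of 0 and 28.9). miR-200a and miR-200b were detected nowhere. Of all 289 miRNAs, 111 were detected on B1, 89 on B3 and 91 on B2. Of 5 mesenchymal miRNAs on the array 1 was detected on B1, with a summed signal of 19.9, against 2 each on B3 and B2, with 623 and 635. These counts are not far from the shares of all miRNAs. miR-143, miR-145 and miR-214 were detected nowhere, so the opposite direction rests on the signals of miR-199 and miR-140 alone. miR-199 was not detected on B1 and had 193 on B3 and 245 on B2, and miR-140 had 19.9 on B1 against 430 and 390. Both lists were chosen with earlier results of these data known, and the part of either list in the result was not tested.

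miR-146b was seen on a P114 array alone, whichever pairing of arrays and samples was used. Its signal was 32.7 on B3 (error 5.41), P114 Sca1- in both, and it was not detected on the other 5 arrays. The other P114 array is the dim D3 by scanner file and the bright B1 (Sca1+) by value table. By value table, therefore, a bright P114 array did not detect miR-146b. All of that signal came from the longer probe, since none of the 20 spots of the shorter one was well above background on B3 (median 0.60). On B2, the bright mono-culture Sca1- array, the longer probe's spots had a median of 6.07 and ran from 2.67 to 10.6, below the lowest spot on B3 but, as kept after outlier flags, all above 0. The bound for B3 (P114, Sca1-) over B2 (mono-culture, Sca1-) was at least 1.44-fold, and it ran from 1.12 to 1.88 in 4 other scalings. For B3 over B1 it was at least 2.62-fold (1.85 to 4.11). With 1 array on each side there was no test. Of all miRNAs, 2 were detected on B3 alone and 5 on B2 alone.

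**Figure D2:**
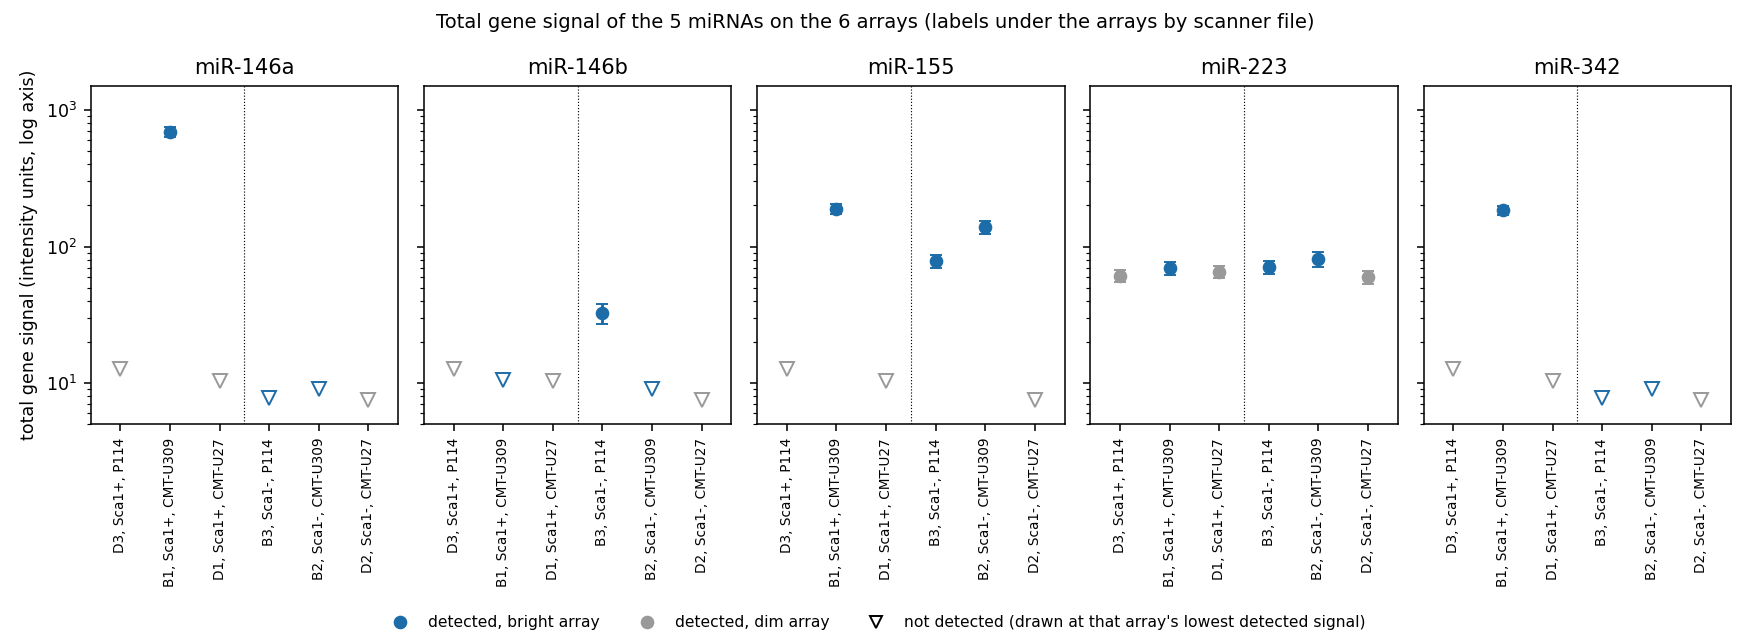
Total gene signal of the 5 miRNAs (vertical log axis, intensity units) on the 6 arrays, with the scanner software's error as bars and open triangles, at that array's lowest detected signal, where a miRNA was not detected. Array labels follow the scanner files, Sca1+ left of the dotted line and Sca1- right of it. miR-146a and miR-342 have a signal on B1 alone, miR-146b on B3 alone, miR-155 on the bright arrays and miR-223 on all 6.

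miR-155 was detected on every bright array and on no dim one. Its signal was 189 on B1 (error 17.0), 78.0 on B3 (8.93) and 139 on B2 (14.6), and it was not detected on D3, D1 and D2. Of the 289 miRNAs, 38 had this same detection pattern. The Sca1+ array B1 was above both Sca1- arrays, 2.43-fold above B3 (5.79 times the combined error of both signals) and 1.37-fold above B2 (2.25 times). B3, from P114, was below B2, from a mono-culture, with a ratio of 0.563, and the difference of -60.6 came to -3.54 combined errors. That error covers spots of 1 array and not the spread between cultures. The Sca1- arrays thus differed from each other by more combined errors than B1 did from B2. Spots of the longer probe did not overlap between these arrays: they ran from 102 to 133 on B1, from 47.7 to 69.5 on B3 and from 78.2 to 99.96 on B2.

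B3 over B2 is the only bright pair in which the macrophage label differs, the fraction does not and both hold however the arrays are assigned. Of 82 miRNAs detected on both arrays, 4 differed at least 2-fold (4.88%), and miR-155 and miR-223 were not among them. For miR-155 the ratio of 0.563 was the fourth lowest of the 82, whose median was 0.940 and whose range was 0.498 to 2.76. It was 0.502 after scaling by the 75th percentile and 0.568 as a ratio of shares of the summed signal. For miR-223 the ratio was 0.877, with 29 of the 82 at or below it. So on the P114 array neither of the 2 detected on both arrays was higher, miR-146b was, and miR-146a and miR-342 were below detection on both.

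miR-223 differed from the other 4 in its pattern and was detected on all 6 arrays at almost the same signal. It had 61.2 on D3, 69.5 on B1, 65.7 on D1, 70.9 on B3, 80.9 on B2 and 59.6 on D2, with errors of 6.18 to 9.88. The mean was 68.0 ± 7.72 (SD over 6 arrays), and the highest signal was 1.36 times the lowest. The farthest pair, B2 and D2, differed by 1.80 times their combined error. The bright arrays averaged 73.8 ± 6.20 and the dim ones 62.2 ± 3.12 (SD, n = 3 arrays each), with no overlap, a ratio of 1.19. Bright and dim arrays did not overlap for any of the 9 miRNAs detected on all 6 arrays, so this was not particular to miR-223. The summed signal of all detected miRNAs differed 222-fold between the highest and the lowest array. The share of miR-223 in that sum was 0.10% on B1 and 19.2% on D3.

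The 8 other miRNAs detected on all arrays did not share this flatness. The next was miR-149, with a highest signal 3.20 times the lowest and a bright to dim ratio of 2.07. For miR-365 the highest signal was 23.5 times the lowest, for miR-494 47.2 times, for let-7b 83.7 times, for let-7a 159 times, for let-7f 273 times, for miR-23a 374 times and for miR-21 533 times. miR-223 was above the empty level: all 20 spots of both probes were well above background on every array, with medians of 22.1 to 31.6, while the 182 negative control spots had medians of 1.13 to 3.33. The highest single negative control spot was at 11.7 on D3 and 96.8 on B1.

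**Figure D3:**
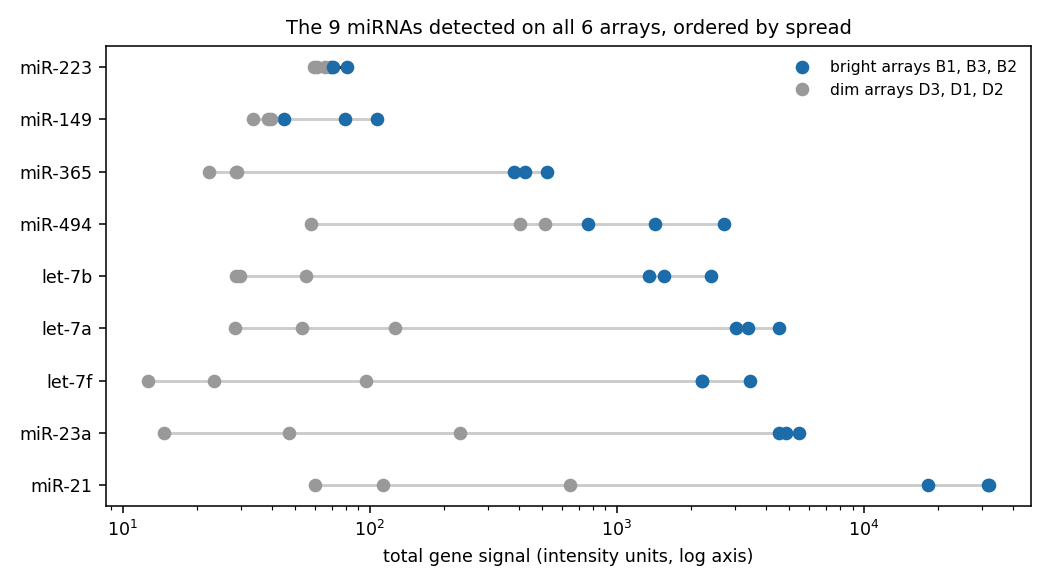
Total gene signal (horizontal log axis, intensity units) of the 9 miRNAs detected on all 6 arrays, 1 point an array, blue for the bright and grey for the dim arrays. The points of miR-223 lie between 59.6 and 80.9, while those of miR-21 run from 60.3 to 32139.

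Both probes of miR-223 also gave nearly the same signal, unlike those of miR-146a, miR-155 and miR-342 on B1. On B1 the longer probe gave 5.25 times the signal of the shorter one for miR-155, 3.45 times for miR-146a and 2.47 times for miR-342, and 1.08 times for miR-223. Over the 67 miRNAs with such a probe pair well above background on B1 the ratio had a median of 1.96 and ran from 0.713 to 6.89, and 5 of the 67 were at or below miR-223. On B3 the ratio for miR-223 was 1.03, with 2 of 50 miRNAs at or below it, and on B2 it was 1.11, with 4 of 51. On the dim arrays it was 1.01 on D3, with 3 of 4 miRNAs at or below it (median 0.984), 1.11 on D1, with 4 of 16 (median 1.84), and 1.05 on D2, with 3 of 7 (median 1.11). Near-equal probes were thus not particular to miR-223 on D3 and D2. The base that the longer probe adds is an A for miR-223 and a C or G for the other 4. Whether the signal of miR-223 comes from miR-223 itself was not tested.

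**Figure D4:**
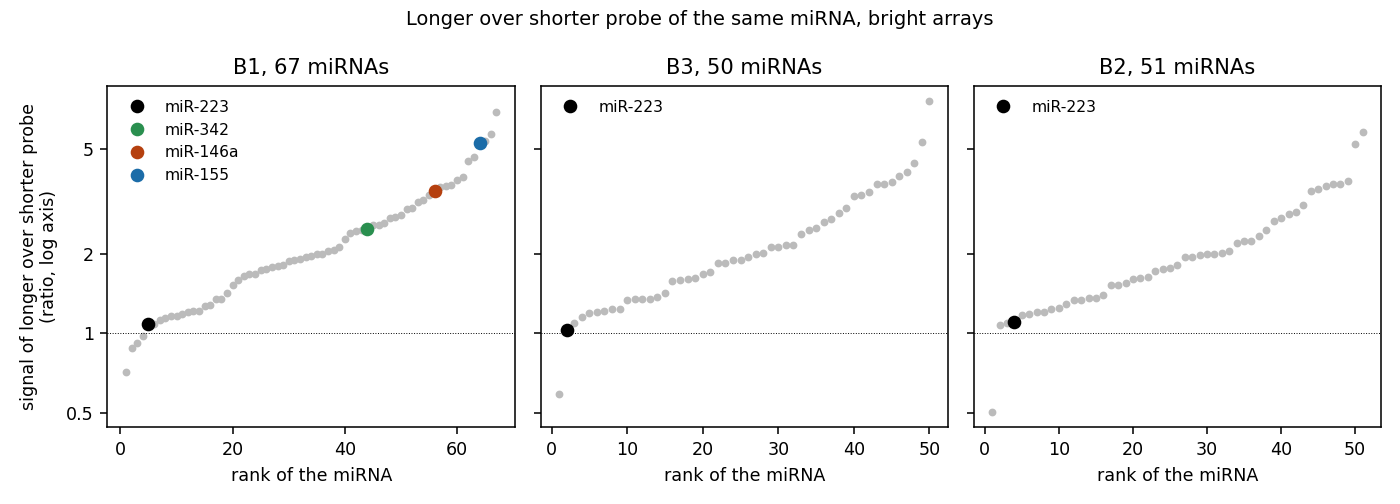
Signal of the longer over the shorter probe (vertical log axis, ratio) for every miRNA with such a pair well above background, ranked within B1 (67 miRNAs), B3 (50) and B2 (51). On B1 miR-155 lies at 5.25, miR-146a at 3.45, miR-342 at 2.47 and miR-223 at 1.08, and on B3 and B2 miR-223 lies at 1.03 and 1.11.

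Sca1+ and Sca1- cells were compared within lines over all 6 arrays, on log2 signals scaled between arrays. Of the 5, miR-155 and miR-223 were detected on at least 3 arrays and so were tested in the main fit, and neither passed. Without the filter on detection, the log2 difference was 2.15 for miR-146a, -5.13 for miR-146b and -0.73 for miR-342. Their adjusted p was 0.997 each with limma, and these values rest largely on signals below detection. Among all 80 miRNAs in the limma fit 0 were called (0%), and 0 had an unadjusted p under 0.05. The scaled log2 difference of miR-155 was -3.12 (SE 1.99, adjusted p = 0.995 with limma, n = 3 pairs). Within lines it was -6.75 in P114, where D3 did not detect it, -0.31 in CMT-U309, where both arrays did, and -2.30 in CMT-U27, where neither did, so it rests in part on values below detection. In CMT-U309 the sign turned with the scaling: the unscaled total gene signal of miR-155 was 189 on B1 against 139 on B2, a log2 difference of 0.45. The difference of miR-223 was 0.98 (SE 2.13, adjusted p = 0.995 with limma), made up of 5.57 in P114, -0.95 in CMT-U309 and -1.69 in CMT-U27. Without scaling the difference was -0.080. By value table the same comparison gave -3.70 for miR-155 and 0.30 for miR-223 (adjusted p = 0.792 and 0.945 with limma, 0% of 80 miRNAs passed, 3 with an unadjusted p under 0.05).

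P114 was compared with the mean of the mono-culture lines next, with the fraction as a term, to read the macrophage label. By scanner file miR-155 was detected on 1 of the 2 P114 arrays and on 2 of the 4 mono-culture arrays, and by value table on 2 of 2 and on 1 of 4. miR-146a and miR-342 were detected on 0 of 2 P114 and 1 of 4 mono-culture arrays by scanner file, and on 1 of 2 and 0 of 4 by value table. For miR-146b it was 1 of 2 P114 and 0 of 4 mono-culture arrays in both pairings. Neither pairing gave a call. The 2 P114 arrays are fractions of 1 line, so the p-values that follow hold no spread between lines. Without the filter on detection, by scanner file, the log2 difference was -1.28 for miR-146a, 3.35 for miR-146b and -0.43 for miR-342. Their adjusted p was 0.997 each with limma, and these values rest largely on signals below detection. By scanner file the log2 difference was 0.67 for miR-155 (SE 2.11) and 0.95 for miR-223 (SE 2.26), with a limma adjusted p of 0.975 for each, and 0 of 80 miRNAs passed (0%), 0 with an unadjusted p under 0.05. By value table it was 6.12 for miR-155 (SE 2.63, adjusted p = 0.162 with limma) and -3.61 for miR-223 (SE 1.14, adjusted p = 0.128), and again 0 of 80 passed (0%), 25 with an unadjusted p under 0.05. By that pairing both P114 arrays are bright and 3 of the 4 mono-culture arrays dim, so brightness moved with the label, and its part in the result was not tested. None of the dim arrays detected miR-155, so its 6.12 rests largely on values below detection, and its 0.67 does in part. With a common floor at the detection limit miR-155 gave no value. The sign of miR-223 turned between pairings while its unscaled signal stayed within 59.6 to 80.9.

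The 3 bright arrays alone gave B1 (Sca1+) against B3 and B2 (Sca1-), rescaled over these arrays. miR-155 differed by 0.39 on the log2 scale (SE 0.31, adjusted p = 0.431 with limma, n = 1 and 2) and miR-223 by -0.44 (SE 0.28, adjusted p = 0.366). Neither passed, where 4 of 90 miRNAs did (4.44%). For miR-223 the difference turned with normexp background, to 0.72, and over the tested alternatives it ran from -0.89 to 0.72. For miR-155 the difference ran from -0.064 to 0.72. With normexp background the median log2 difference over all 90 miRNAs was 0.55, so a positive difference there was not particular to miR-223. The lone Sca1+ array was assumed to vary like the others.

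Other miRNAs of blood cells and of inflammation were read from lists. Of 5 further blood cell miRNAs on the array, 2 were detected anywhere, a share close to that of all miRNAs on the array (124 of 289), so this count does not set the 5 apart. miR-142, typical of all blood cell lineages, miR-150, of lymphocytes, and miR-144, of erythroid cells, were detected on none of the 6 arrays, and so on no P114 array by either pairing. miR-451, an erythroid miRNA, had 18.1 on B2 and 39.4 on D2, both of them mono-culture arrays in either pairing, and miR-181a had 26.9 on B1. The summed signal of these 5 ran from 0 to 39.4 on single arrays. miR-126, of endothelial cells, was detected on none. miR-486 was listed but had no probe.

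Of 9 further miRNAs linked to NF-kB or induced in inflammation, 7 were detected on B1, 5 on D1, B3 and B2, 2 on D2 and 1 on D3. Of all 289 miRNAs, 111 were detected on B1, 39 on D1, 89 on B3, 91 on B2, 22 on D2 and 9 on D3. miR-9 (51.3) and miR-147 (10.5), both induced by Toll-like receptor ligands in human or mouse leukocytes, were detected on B1 alone, as miR-146a and miR-342 were. The signal of miR-147 was the lowest of any miRNA detected on B1. miR-132 and miR-187 were detected nowhere. miR-221 and miR-222 ran the other way on the bright arrays, with 175 on B1 against 667 on B3 and 746 on B2, and 118 on B1 against 251 and 346. miR-29b had 1078 on B1, 1735 on B3 and 1939 on B2, and miR-125b 1412, 1148 and 1276. The list as a whole therefore had no common direction on B1.

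The miRNAs most like miR-155 over the 6 arrays, by Pearson correlation of log2 total gene signal among 79 others detected on at least 3 arrays, were miR-10b (r = 1.00), miR-18a (1.00) and miR-19b (0.999). None of them was detected on a dim array, where all share the value 0.1. On the bright arrays they had the same order as miR-155: miR-10b had 114.4 on B1, 49.7 on B3 and 82.2 on B2, and miR-18a 144, 58.5 and 85.8. For miR-223 the most alike of 8 candidates were miR-149 (r = 0.912), miR-21 (0.890) and miR-23a (0.860), although on the bright arrays B1 was the lowest for miR-223, miR-149, miR-21 and miR-23a alike and the span of miR-223 was far smaller. These correlations are over 6 arrays that share 1 slide and differ in brightness.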

How the data were processed

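Total RNA of the 6 sorted samples was labelled and hybridized to 1-colour Agilent miRNA arrays. The deposited scanner files give spot intensity and total gene signal from Agilent's Feature Extraction software. Its version is 10.10.1.1 in the file headers, whereas the submitters' processing notes name 10.7.3.1. Per the file headers, spatial detrending of the intensity was on. The deposited value table holds the same total gene signal, as intensity, for 311 features. Of its 6 columns, 2 equalled the scanner file of the same sample and 4 that of another (relative tolerance 0.0001). The main fits followed the scanner files.

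The members, lists and tests were chosen with earlier results of these data known. A bright array is one with over 50 detected miRNAs. Processed signals at or below 0 were set to the array's lowest positive value and taken to log2. For scaling, the array's percentile 75 was subtracted, taken over probes with a share of spots above 0.5 well above background on every array of the fit, 10 probes of 6 miRNAs over 6 arrays (miR-223 among them) and 122 probes of 70 miRNAs over the bright ones. Outlier-flagged spots were left out (62 of the 1200 member spots) and no member spot was saturated. The probe with the highest mean stood for a miRNA. The filter asked for detection on at least 3 arrays (2 of the bright ones), and what passed was fitted with limma 3.58.1 in R 4.3.3, with line or fraction as a term, and p-values were adjusted by Benjamini-Hochberg at 0.05. Residual degrees of freedom were 2, or 1 on the bright arrays. The line pairs the samples, since both fractions were sorted from it. The fits were tested on simulated data with known changes and a spread well below that of the 6-array fits. That test does not show what the fits can find in data like these. The labels speak of biological replicates without saying how cultures were separated. The p-values of the main 6-array fits measure the spread left after line and fraction are fitted. Spread between lines is not in that error, so the P114 p-values do not measure how lines vary. On the bright arrays the error is the spread between B3 and B2. The number of arrays limits the precision. By rule, the named miRNAs were the 5 members, listed miRNAs detected on at least 1 array, miRNAs detected on all 6, and the 3 most alike in pattern to each member detected on at least 3. Listed miRNAs that were not detected are named outside that rule, to account for the lists. Alternatives changed the background, scaling, floor, filter, signal, array assignment, block and arrays.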

Additional observations from a re-analysis of the deposited data

Results flagged for a closer look

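Among the 4 mono-culture arrays by scanner file, B1 stood apart from the other 3 for miR-146a, with a total gene signal of 690 against the placeholder for not detected, and for miR-342, with 184. By value table the mono-culture arrays are B2, D1, D2 and D3, and there B2 stood apart for miR-155, with 139. In each case the gap to the nearest array made up the whole range, because the miRNA was detected on 1 of the 4. The limit is one that chance passes in about 1 in 20 groups of measured values, a rate that does not apply here: 3 of the 4 arrays share the placeholder, so any miRNA detected on 1 of the 4 passes it. The array that stood apart was the only bright array of the 4 for miR-155. For miR-146a and miR-342, B2 was bright as well.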

How the results depend on the processing

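No miRNA passed in the Sca1 comparison within lines or in P114 over the mono-culture lines under any alternative run, leaving out each array in turn (0 to 0) included. Without the line as replicate block the Sca1 count was 0 of 80 (smallest adjusted p 0.994 with limma); the P114 comparison has the line as its contrast and no such block. On the bright arrays the count of 4 became 54 under normexp, 11 when all probes set the scaling, 14 with scaling without the probes of miR-223, and 0 with quantile scaling and without the filter on detection; leaving out B3 or B2 left no residual degree of freedom. For B3 over B2, 14 of 82 miRNAs passed at 1.5-fold in place of 2-fold, miR-155 among them. Within lines the Sca1 difference of miR-155 turned to 0.62 with normexp background, and that of miR-223 to -0.080 without scaling. In P114 over mono-culture the difference of miR-155 turned to -0.51 with quantile scaling and -0.39 without scaling, and that of miR-223 to -0.11 without scaling, -3.61 by value table and -4.06 by value table with total gene signals, an alternative chosen after seeing the data, as were those of the bounds (for miR-146b, B3 over B1, 4.11 in place of 2.62 with scaling over all probes). On the bright arrays miR-155 turned to -0.064 with scaling over all probes and miR-223 to 0.72 with normexp background. The cause was not tested. Without single arrays, the Sca1 difference of miR-223 ran from -1.32 to 2.31 (turned without D3 or B3) and its P114 difference from -2.75 to 4.39 (turned without D3 or D1). Each array left out moved both by over 1.5 times. For miR-155 they ran from -3.53 to -1.23 (the second without D3) and from 0.37 to 3.14 (without D2 and without D3), with no value without a bright array, where it fell below the filter. On the bright arrays, as values with no test, miR-155 was 0.043 without B3 and 0.60 without B2, and miR-223 ran from -0.59 to -0.42. With a common floor at the detection limit, miR-155 lay at the floor on all 6 arrays and gave no value.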
